A study of Mus musculus with 6 samples.

Results

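The 9 genes described here encode SETD5 with its close relative, and the subunits of the HDAC3-NCoR and PAF1 complexes, the chromatin and transcription partners of SETD5. They are Setd5 and Kmt2e, then Hdac3, Ncor1 and Tbl1xr1 of the corepressor, and Paf1, Ctr9, Cdc73 and Leo1 of the elongation complex. They were taken by gene symbol from a table of 53110 genes, in which each had 1 row, and all of them passed the minimum mean of 10 normalized counts that left 16266 genes for the comparison. RNA-seq had been made from primary cortical neural stem cells (NSCs) of the mouse, kept adherent on Matrigel with bFGF and EGF at 21% oxygen. There were 3 samples of wild-type (WT) and 3 of Setd5+/- genotype. The Setd5+/- cells carry a mutation introduced with CRISPR-Cas9 in 1 of the gene copies. The comparison asks how the RNA of Setd5 itself and of its partners stood in these cells.

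The 3 samples of a genotype were not independent. Their column names show the same index and lane. The chi-square of reads was divided by its degrees of freedom, and by 2 because both reads of a pair were taken to be counted. It was then 0.958 to 0.981 in the 6 comparisons within a genotype, against 31.7 to 31.9 in the 9 across genotypes. Each set of 3 was therefore counted as 1 library, with 30004634 reads on genes in WT and 21435546 in Setd5+/-, and no p-value or SD is given. The mutant columns carry the name of a single clone, A3, which is not among the clones named in the study's text. With these samples the genotype cannot be told apart from the clone, the library or its index and lane. Intervals given below are 95% counting intervals of the 2 libraries, which do not include the variation between cultures or clones.

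SETD5 contains a SET domain, the fold found in many histone methyltransferases, and KMT2E (also called MLL5) is its nearest relative. In the corepressor, NCoR1 is the scaffold that brings the histone deacetylase HDAC3 to chromatin and switches on its activity, and TBL1XR1 is a WD-repeat subunit that holds the assembly together and takes part in its exchange for coactivators. The PAF1 complex travels with RNA polymerase II (Pol II). PAF1 and CTR9 form its core, CDC73 (parafibromin) and LEO1 bind to it, and together they affect the release of paused polymerase and the histone marks laid down during elongation. Loss of 1 copy of SETD5 in humans causes intellectual disability with autistic features.

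In the Setd5+/- library, 3 of the 9 genes were lower (Setd5, Tbl1xr1 and Paf1) and 1 was higher (Cdc73), when a call needed a log2 difference of at least 0.32 and an interval that excluded 0. Of all genes tested, 24.8% were called lower and 26.4% higher by the same rule, 51.3% in all, so that 4 of 9 was no more than the share among all genes. Without regard to size, the interval excluded 0 for 6 of the 9 (64.7% of all genes), with 5 lower (32.5%) and 1 higher (32.3%), and the values of the genotypes did not overlap for 6 of the 9 (65.3%). At a difference of at least 1.5-fold, 0 of the 9 were lower (14.6% of all genes) and 1 was higher, Cdc73 (18.6%), so that 1 was called in all (33.1%). The median log2 change of the 9 was -0.23, and that of all genes tested was -0.02. In bulk RNA, fewer cells of a type and less RNA per cell cannot be told apart.

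**Figure D1:**
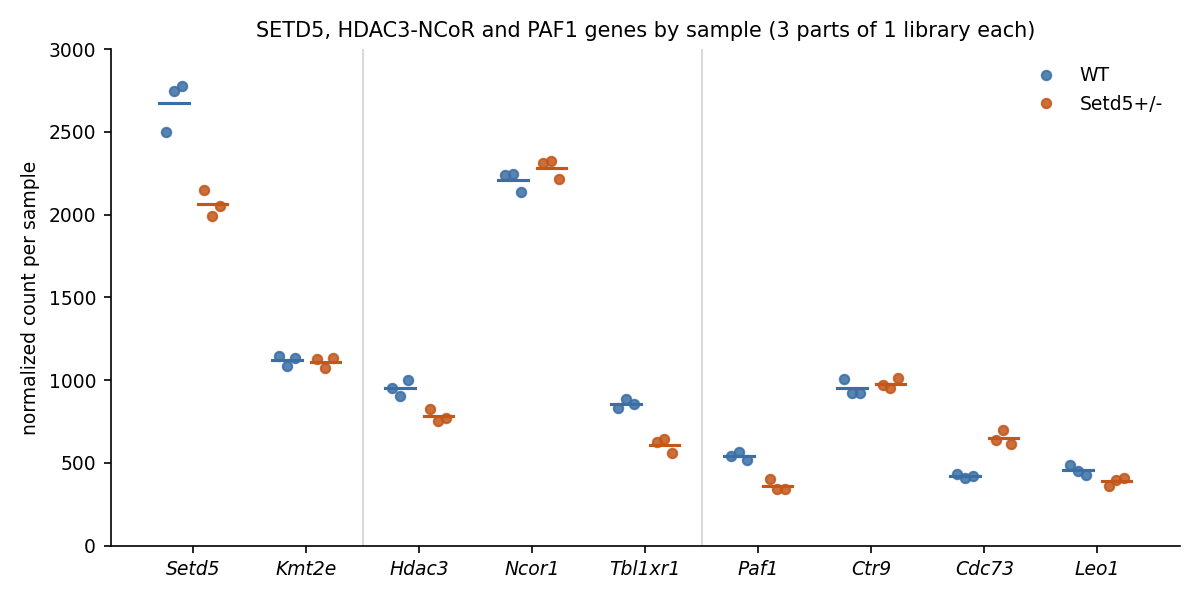
Normalized counts (vertical axis, from 0) of the 9 genes in each sample, with WT in blue and Setd5+/- in orange. Points are the 3 parts of 1 library per genotype and bars their mean. Setd5, Hdac3, Tbl1xr1, Paf1 and Leo1 lie lower in all 3 Setd5+/- parts than in all 3 WT parts, Cdc73 lies higher, and Kmt2e, Ncor1 and Ctr9 overlap.

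Setd5, the targeted gene, lies on chromosome 6 from 113077365 to 113153435 on the plus strand (GRCm38, the build also called mm10). WT samples had normalized counts of 2498, 2749 and 2780, and Setd5+/- samples of 2151, 1990 and 2055. All 3 values of the mutant library were below all 3 of the WT library. The mutant level was 77.2% of that in WT (73.7 to 80.9), a log2 change of -0.37 (-0.44 to -0.31). The parts of Setd5 varied more than counting alone gives, with a chi-square per degree of freedom of 3.59, so its interval is narrow for their spread, and with each sample left out in turn the change lay between -0.42 and -0.34. A gene total does not show from which allele the reads came. Of the tested genes, 25.2% had a log2 change below that of Setd5, and 1238 genes lay inside its interval.

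Kmt2e, on chromosome 5, was at the same level in both libraries within the counting error. The WT samples had 1144, 1087 and 1135 normalized counts and the Setd5+/- samples 1130, 1075 and 1133. The mutant level was 99.1% of WT (92.7 to 106.0), a log2 change of -0.01 (-0.11 to 0.08). The ratio of Setd5 to Kmt2e counts went from 2.38 in WT to 1.86 in Setd5+/-, a log2 change of -0.36 (-0.48 to -0.24). Such a ratio is taken within each library, so it does not depend on how the libraries were scaled to each other. Kmt2e shares 972 of its 10444 exon bases with Srpk2 on the opposite strand, and the library kit does not keep strand, so reads in that stretch cannot be told apart. The normalized count of Srpk2 was 1478 in WT and 1437 in Setd5+/-.

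The 3 genes of the corepressor did not differ alike. Hdac3, the deacetylase, had 953, 906 and 1002 normalized counts in WT and 828, 753 and 771 in Setd5+/-. The values did not overlap, and the mutant level was 82.2% of WT (76.1 to 88.8), a log2 change of -0.28 (-0.39 to -0.17). This was under 0.32, so Hdac3 was not called, and without Setd5+/- replicate 1 it was called lower at -0.32.

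Ncor1, the scaffold, had 2237, 2249 and 2138 normalized counts in WT and 2313, 2327 and 2216 in Setd5+/-. The values of the genotypes overlapped, and the log2 change was 0.05 (-0.02 to 0.12). Ncor1 lies on chromosome 11 and overlaps Pigl by 82 and Ttc19 by 1 exon base on the opposite strand. The normalized counts of Pigl were 94.1 in WT and 131.4 in Setd5+/-, and those of Ttc19 were 337.4 and 401.5.

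Tbl1xr1, the WD-repeat subunit, was the lowest of the 3 in the mutant relative to WT. It lies on chromosome 3 from 22076652 to 22216594, on the plus strand. Its normalized counts were 829, 889 and 856 in WT and 626, 647 and 560 in Setd5+/-. All mutant values were below all WT values, at 71.2% of the WT level (65.4 to 77.5) and a log2 change of -0.49 (-0.61 to -0.37). A processed pseudogene inside it, Gm5842, had 0 reads in both libraries.

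Within the corepressor, the ratio of counts changed beyond its interval in 3 of 3 pairs of genes. The ratio of Ncor1 to Tbl1xr1 counts was 2.57 in WT and 3.74 in Setd5+/-, a log2 change of 0.54 (0.40 to 0.68). The ratio of Hdac3 to Ncor1 went from 0.43 to 0.34 (log2 change -0.33, -0.46 to -0.20). Over all pairs of tested genes, 63.4% had a ratio that changed beyond its interval. These pairs include genes with far fewer reads, whose intervals are wider.

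The 4 genes of the PAF1 complex had a call in each direction. Their log2 changes ran from -0.58 to 0.63, and those of the 3 corepressor genes from -0.49 to 0.05. The upper end in the PAF1 complex was Cdc73 alone, on chromosome 1, and the next highest was Ctr9 at 0.04. Paf1, which names the complex, lies on chromosome 7 from 28392951 to 28399388 on the plus strand. Its normalized counts were 541, 567 and 517 in WT and 403, 343 and 343 in Setd5+/-. The values did not overlap. The mutant level was 67.0% of WT (60.1 to 74.8), the lowest percentage among the 9 genes, and the log2 change was -0.58 (-0.73 to -0.42).

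Ctr9, the other core subunit, is also on chromosome 7 and was level between the libraries. The WT samples had 1008, 923 and 925 normalized counts and the Setd5+/- samples 969, 954 and 1013. These values overlapped, with a log2 change of 0.04 (-0.06 to 0.14). The ratio of Paf1 to Ctr9 counts fell from 0.57 in WT to 0.37 in Setd5+/-, a log2 change of -0.62 (-0.81 to -0.43).

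Leo1, on chromosome 9, had 485, 453 and 429 normalized counts in WT and 362, 395 and 410 in Setd5+/-. The lowest WT value was above the highest mutant value. The mutant level was 85.4% of WT (76.5 to 95.3), a log2 change of -0.23 (-0.39 to -0.07), which was not large enough to be called.

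Cdc73, the gene of parafibromin, was the only one of the 9 called higher in Setd5+/-. It lies on chromosome 1 from 143598800 to 143702893 on the minus strand. The normalized counts were 430, 406 and 421 in WT and 636, 699 and 617 in Setd5+/-. All mutant values were above all WT values, at 155.3% of the WT level (140.9 to 171.1) and a log2 change of 0.63 (0.49 to 0.77). Most genes of chromosome 1 were higher in the mutant. The median log2 change of its 1044 tested genes was 0.53, a value inside the interval of Cdc73, and 56.7% of them had a log2 change below that of Cdc73. The part of the chromosome in the value of Cdc73 was not tested.

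B3galt2, a galactosyltransferase gene on the opposite strand, lies within Cdc73 and shares 679 of the 17613 exon bases of Cdc73. It too was higher in Setd5+/-, going from 71.0 to 212.1 normalized counts (257 and 534 reads). How many of the reads counted for Cdc73 came from B3galt2 was not tested. The total for Cdc73 was 1518 reads in WT and 1639 in Setd5+/-.

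Within the PAF1 complex, 6 of 6 pairs of genes had a ratio of counts that changed beyond its interval (63.4% of all pairs of tested genes). The largest of these was Paf1 to Cdc73, which was 1.29 in WT and 0.56 in Setd5+/- (log2 change -1.21). The mutant ratio was 0.43 times that of WT (0.37 to 0.50). The 36 pairs of the 9 genes share their genes and are not independent of each other. Of them, 28 changed beyond the interval (77.8%, against 63.4% of all pairs). These included 9 of the 12 pairs between the 2 complexes and 9 of the 14 pairs of Setd5 or Kmt2e with a complex gene. Among the 8 that did not was Setd5 with Hdac3 (log2 change of the ratio -0.09, -0.22 to 0.04), Setd5 with Tbl1xr1 (0.12, -0.02 to 0.26) and Ncor1 with Ctr9 (0.01, -0.11 to 0.13). The share over all pairs includes genes with far fewer reads and wider intervals, so the 2 shares differ in depth as well. The pairs with Setd5 also use its interval, which is narrow for the spread of its parts. How far this moves the shares was not tested.

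**Figure D2:**
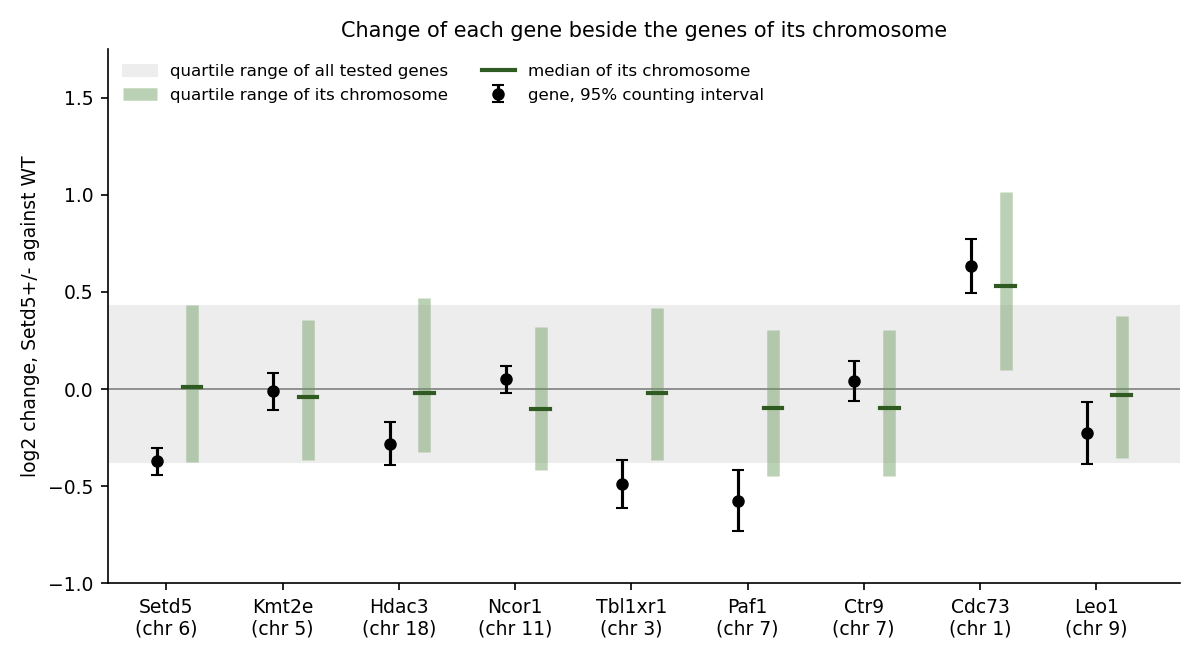
The log2 change of each gene (black points, Setd5+/- against WT, bars are 95% counting intervals), the median (dark green line) and the range between the quartiles (light green bar) of the tested genes of its chromosome, and the same range over all tested genes (grey band). Cdc73 lies near the median of chromosome 1, the only raised one of the 8 chromosomes shown. Setd5, Tbl1xr1 and Paf1 lie below the medians of their chromosomes. Tbl1xr1 and Paf1 are also below the lower quartiles of theirs (-0.37 and -0.45), whereas Setd5 at -0.37 is just inside that of chromosome 6 (-0.38).

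Of the called genes, Cdc73 lay nearest to the median of its chromosome. Paf1 lay 0.48 below the median of chromosome 7 on the log2 scale (-0.58 against -0.10), Tbl1xr1 0.47 below that of chromosome 3 and Setd5 0.38 below that of chromosome 6, whereas Cdc73 lay 0.10 above that of chromosome 1. Ctr9, on the same chromosome as Paf1, lay 0.14 above the median. As a description, 18.4% of the tested genes of chromosome 7 had a log2 change below that of Paf1, 19.6% of chromosome 3 below that of Tbl1xr1 and 25.4% of chromosome 6 below that of Setd5.

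The stretches just before the starts of Paf1, Tbl1xr1 and Cdc73 are shown because these genes were called in opposite directions. They are RefSeq sequences of GRCm38.p6, up to 250 bases before the annotated start and clear of annotated exons, and 6 of the 9 genes had an entry in the table used. Capitals mark the CCAAT box (CCAAT or ATTGG) and the GC box (GGGCGG or CCGCCC), searched on both strands, with no overlap between them. The Paf1 stretch is chr7:28392746-28392950 on the plus strand, that of Tbl1xr1 is chr3:22076402-22076651 on the plus strand and that of Cdc73 is chr1:143702894-143703143 on the minus strand, and each is written 5′ to 3′ along its gene.
Paf1: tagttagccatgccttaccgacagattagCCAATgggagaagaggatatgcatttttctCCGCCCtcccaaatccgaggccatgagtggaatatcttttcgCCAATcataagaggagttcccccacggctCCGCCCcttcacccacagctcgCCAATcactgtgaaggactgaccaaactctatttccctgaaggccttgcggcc
Tbl1xr1: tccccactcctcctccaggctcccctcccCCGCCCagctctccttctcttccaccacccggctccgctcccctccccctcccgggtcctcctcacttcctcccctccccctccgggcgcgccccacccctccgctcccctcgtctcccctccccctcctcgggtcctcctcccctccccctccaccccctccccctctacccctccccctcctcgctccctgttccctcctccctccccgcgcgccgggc
Cdc73: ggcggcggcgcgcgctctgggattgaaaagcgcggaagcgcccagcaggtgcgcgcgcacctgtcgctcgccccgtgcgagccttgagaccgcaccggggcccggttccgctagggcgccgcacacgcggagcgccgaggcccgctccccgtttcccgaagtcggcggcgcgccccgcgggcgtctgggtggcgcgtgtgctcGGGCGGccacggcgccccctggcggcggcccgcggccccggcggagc

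The Paf1 stretch of 205 bases held 3 CCAAT boxes and 2 GC boxes, with a GC content of 52.7%. The other 2 stretches held 1 GC box each and no CCAAT box, and their GC contents were 76% for Tbl1xr1 and 80.4% for Cdc73, against a median of 52.4% over all windows. Of the 32851 windows of 250 bases in the table, 33.8% held a CCAAT box and 32.7% a GC box. The entry for Setd5 lies at a start inside the gene and is not shown.

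Levels were compared between genes per length, where those of Setd5 and Ncor1 also rest on how their decimal points were placed. In WT cells the order in normalized counts per kb of exons was Hdac3 with 235 (224 to 246), Ncor1 with 172 (167 to 178), Paf1 with 157 (148 to 167) and Setd5 with 146 (142 to 150). Ctr9 with 119, Kmt2e with 107, Tbl1xr1 with 96.4, Leo1 with 94.1 and Cdc73 with 23.8 followed. The intervals of Ncor1 and Paf1, of Paf1 and Setd5, and of Tbl1xr1 and Leo1 overlapped. Overlap alone does not show that levels are alike, and the differences between these neighbours were not tested.

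In Setd5+/- cells Hdac3 with 193 and Ncor1 with 178 per kb were still the highest, and their intervals now overlapped. Ctr9 with 122, Setd5 with 113, Kmt2e with 107 and Paf1 with 106 came next, and Paf1 had moved from the third to the sixth place. Leo1 had 80.3, Tbl1xr1 68.6 and Cdc73 37.0. Here the intervals of each gene and the next overlapped from Ctr9 to Paf1, and those of Leo1 and Tbl1xr1 did too. The lengths used cover all annotated exons of a gene, rare ends included. The order depended on this choice. With the longest coding transcript in their place, Hdac3 was still first and Cdc73 last in both genotypes, but Setd5 came second, with 396 per kb in WT and 306 in Setd5+/-. Ncor1 then took the fourth place in WT and the third in Setd5+/-, and Paf1 went from the third to the fifth place.

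**Figure D3:**
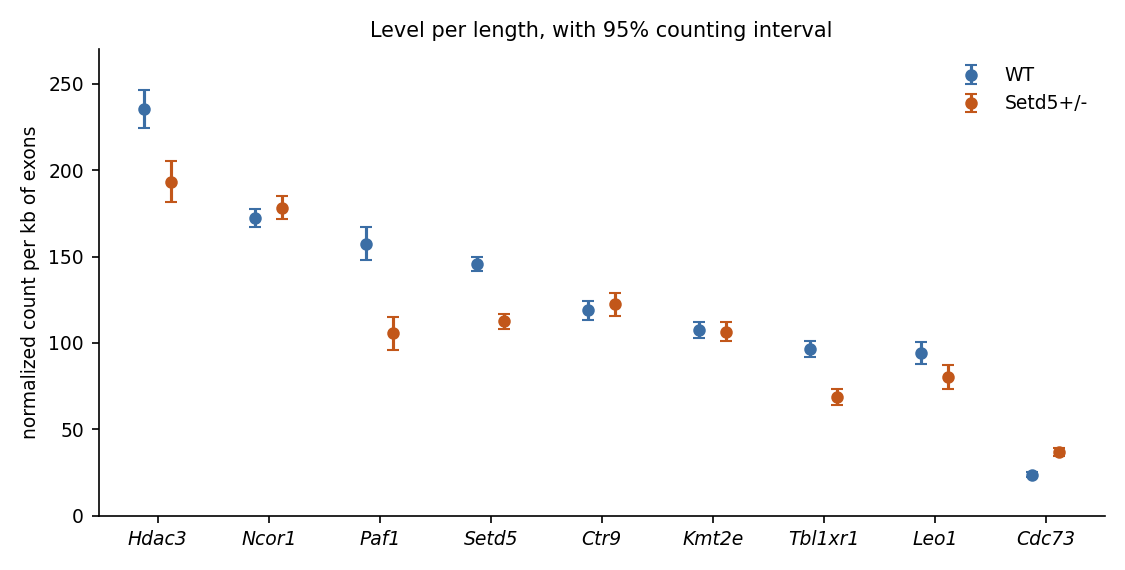
Level of each gene in normalized counts per kb of exons (vertical axis, from 0) in WT (blue) and Setd5+/- (orange), with 95% counting intervals, in the order of the WT levels. Hdac3 is highest and Cdc73 lowest in both genotypes, and Paf1 lies at 157 in WT and 106 in Setd5+/-.

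The tested genes nearest to Setd5 had log2 changes of both signs. Of the 10 on each side, 7 were called lower (24.8% of all genes tested), 4 higher (26.4%) and 9 neither, with a median log2 change of -0.09 and a range from -1.20 to 1.11. Distances are between the lowest coordinates of the genes, whatever their strand. By this measure the 10 upstream reached 4294 kb from Setd5 and the 10 downstream 338 kb. Upstream, the genes called lower were Srgap3 (-1.20), a regulator of Rac signalling, Rad18 (-0.75), a ubiquitin ligase of DNA damage tolerance, and Thumpd3 (-0.71), at 359, 458 and 31.1 kb. The called higher ones upstream were Arl8b (0.39), a small GTPase of lysosomes, and Edem1 (0.62), which acts in the degradation of misfolded glycoproteins, at 4294 and 4249 kb, and the processed pseudogene Gm5578 (1.11) at 472 kb.

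Downstream, Brpf1 (-0.37), a subunit of a histone acetyltransferase complex, Camk1 (-0.62), a calcium-dependent kinase, Arpc4 (-0.67), a subunit of the actin-nucleating ARP2/3 complex, and Ttll3 (-0.70) were called lower, and Lhfpl4 (0.48), a partner of GABA-A receptors, higher. The transcript nearest to Setd5 on the upstream side, Gt(ROSA)26Sor on the opposite strand, is named for its place and was not called, at -0.31 (-0.56 to -0.06). Thus the genes adjoining Setd5, Gt(ROSA)26Sor and Lhfpl4, had log2 changes of opposite sign.

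**Figure D4:**
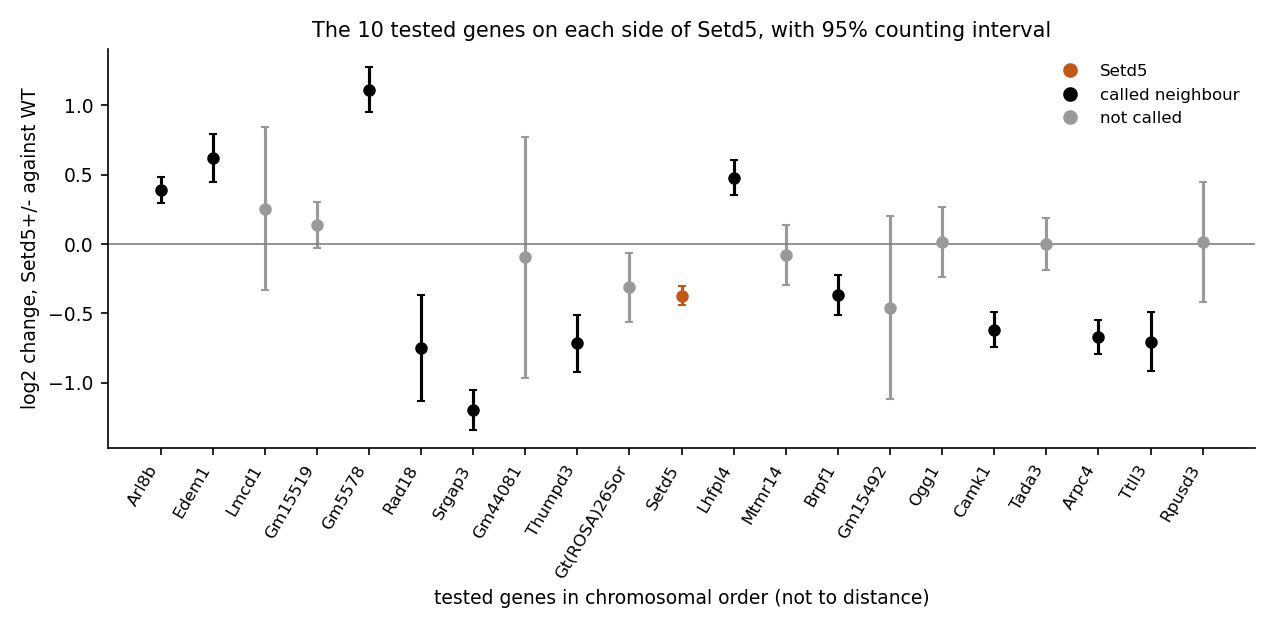
The log2 change (Setd5+/- against WT) of Setd5 (orange) and of the 10 tested genes on each side in chromosomal order, with 95% counting intervals; black points are called and grey points are not. Setd5 is at -0.37. The lowest (-1.20, Srgap3) and highest (1.11, Gm5578) changes are both upstream, and those downstream run from -0.70 to 0.48.

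By level and change combined, genes most like Setd5 included Lrrc58 (2715 normalized counts in WT and 2146 in Setd5+/-) and Hnrnpdl (2739 and 2157), which encodes an RNA-binding protein. Likeness was the distance in log2 mean level and log2 change over the 2 libraries, and it was 0.05 for both.

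Of the other subunits of the NCoR corepressor, the 2 described here were not called. Tbl1x, the X-linked paralogue of Tbl1xr1, had 1055 normalized counts for WT and 1259 for Setd5+/- (log2 change 0.25, 0.16 to 0.35), and Gps2 had 206.8 and 193.4 (-0.10, -0.33 to 0.13). Tbl1xr1 and its paralogue thus had log2 changes of opposite sign, -0.49 and 0.25. No other gene outside the overlapping ones shared more than 0.684% of the 50-base stretches of any of the 9 genes, and for Tbl1xr1 this share was at most 0.0878%.

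The other subunits of the PAF1 complex were both called lower. Rtf1, which in mammals is bound less tightly and promotes ubiquitination of histone H2B, had 706 normalized counts for WT and 510 for Setd5+/- (log2 change -0.47, -0.60 to -0.33). Wdr61, also called SKI8, had 497.5 and 390.7 (-0.35, -0.50 to -0.19). With these, the complex had 3 of 6 genes called lower (24.8% of all genes tested), 1 called higher (26.4%) and 2 not called.

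Among the 7 class I and IIa histone deacetylases other than Hdac3, 3 were called lower (24.8% of all genes tested) and 1 higher (26.4%). Their median log2 change was -0.29. The largest fall was in Hdac9, from 113.5 to 83.4 normalized counts (-0.44, -0.77 to -0.11). Hdac4, which lies on chromosome 1 like Cdc73, had the largest rise, from 299.0 to 648.9 (1.12, 0.96 to 1.27).

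Pol II pausing and release was represented by 17 genes, at a median of -0.19. Of these, 4 were called lower (24.8% of all genes tested) and 1 higher (26.4%). Cdk9, the kinase of P-TEFb that releases paused polymerase, was the lowest, at 324.4 normalized counts for WT and 190.6 for Setd5+/- (-0.76, -0.98 to -0.55). Ccnt2, a cyclin partner of Cdk9 and also on chromosome 1, was the one called higher, with 965 and 1269 (0.39, 0.30 to 0.49).

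Of 13 genes of elongation through chromatin, 2 were called lower (24.8% of all genes tested), 3 higher (26.4%) and 8 neither. The median was -0.06. Ube2a, an E2 enzyme of H2B ubiquitination, went from 577.5 to 252.2 (-1.19, -1.37 to -1.01). Rnf20, an E3 ligase of the same reaction, went the other way, from 826 to 1375 (0.74, 0.64 to 0.83). These 2 are the extremes of the list, and its Rnf40 (-0.06) and Ube2b (-0.03), of the same reaction, were not called. Over the 41 genes of these 5 lists, 11 were called lower (24.8% of all genes tested) and 5 higher (26.4%), and the median of -0.15 stood beside -0.02 for all genes.

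**Figure D5:**
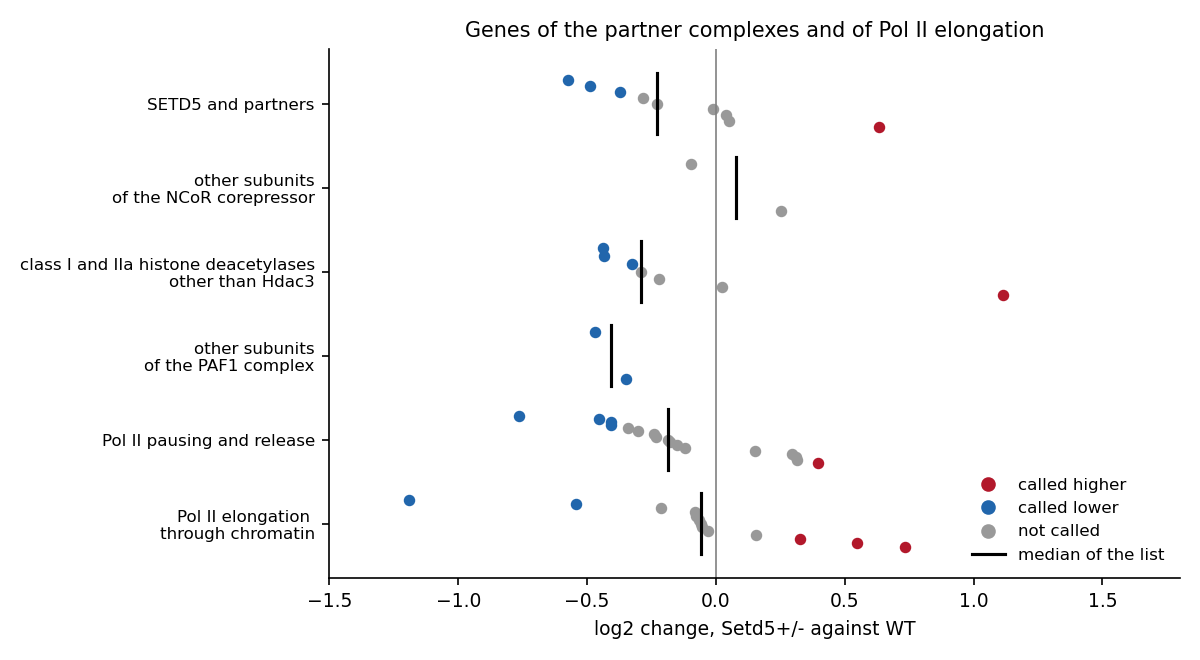
The log2 change (horizontal axis, Setd5+/- against WT) of the 9 genes and of 5 lists of related genes, 1 point per gene, blue where called lower, red where called higher and grey otherwise; black lines are the list medians. Both other subunits of the PAF1 complex are called lower, the 2 other corepressor genes are not called, and the last 2 lists and the deacetylases hold calls in both directions.

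Markers of the labelled cell type were present. All 12 NSC markers were tested, of which 3 were called lower, 3 higher and 6 neither. Their summed level was 76492 normalized counts in WT and 55993 in Setd5+/-, but Fabp7 alone went from 36015 to 11490. The other 11 summed to 40477 and 44504, most of it from Slc1a3 (20983 and 21117) and Vim (9095 and 13822). Besides Fabp7, Hes1 (475.7 and 223.6) and Prom1 (24.6 and 2.38, with 6 reads in Setd5+/-) were called lower. Those called higher were Vim, Pax6 and Hes5. The log2 change was below 0 in 8 of the 12 and above 0 in 4. Of 4 forebrain markers, 3 were tested and all 3 called lower (sum of the 4 markers 1500 and 905). The cortical gene Emx1 had 2 reads in WT and 0 in Setd5+/-. The sums were 339.9 and 36.9 for 6 neuronal markers, most of it from Dcx (248.5 and 26.2). Of these 6, only 3 passed the minimum mean, and all 3 were called lower. The 4 astrocyte markers summed to 795 and 1334 and went both ways, with Gfap, Aqp4 and S100b called higher and Aldh1l1 lower (380.4 and 147.3). The 6 oligodendrocyte-lineage markers summed to 40302 and 22523, most of it from Olig1 and Olig2. Of the 5 tested, 3 were called lower and 1 higher. Microglial (100.0 and 58.0), mesenchymal (7.73 and 6.36) and endothelial (8.01 and 19.9) sums were low. Most of the microglial sum was from Csf1r alone (98.0 and 53.6, called lower). Most of the endothelial sum was from Kdr alone (6.35 and 17.9, called higher). The neuronal genes Neurod1 and Neurod6, the microglial Cx3cr1 and the mesenchymal Lum had 0 reads in both libraries. The part of these cell states in the values of the 9 genes was not tested.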

How the data were processed

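Total RNA of the 6 samples had been made into TruSeq RNA v2 libraries, which do not keep strand. The authors trimmed reads with Trimmomatic, aligned them with Bowtie2 to mm10 and used DESeq2. The deposited values are counts divided by the size factor of the sample. The counting program, annotation and strand setting are not given in the sources used here. The table also holds 5 columns of the authors' own comparison, which were not used.

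Many deposited values had lost their decimal point. It was placed where a value became a whole number of reads (1 read being 0.827 to 0.829 normalized counts in WT and 1.19 in Setd5+/-), with the deposited mean deciding in 15598 genes. In 709 genes, Setd5 and Ncor1 among them, another placement with every value multiplied alike also matched the mean, and the one with most decimals was taken. Fold changes do not depend on this, but levels, ratios to other genes and interval widths do. With values 10 times as high, the chi-square of the parts per degree of freedom would be 35.9 for Setd5 and 8.75 for Ncor1, against 3.59 and 0.875 as used. The restored values gave the deposited mean in 52438 of 52438 genes, and 672 genes had no values. Restoration, intervals and calls were tested on simulated data.

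The log2 change was that of the mean normalized count plus a pseudocount of 1. The counting variance was 1.94 times the mean, from the spread of the parts within a genotype. Both reads of a pair were taken to be counted, which the sources do not state. The 9 genes rested on 1518 to 9692 reads in WT and 914 to 5755 in Setd5+/-. Positions and exons came from GENCODE M21 (GRCm38). With 1 library per genotype no test was possible, and called means a log2 change of at least 0.32 with an interval that excludes 0. Genes were named by rule: the 9 genes, genes overlapping them, called neighbours of Setd5, the called extremes of each list, lists of up to 3 genes in full and the 3 genes nearest to Setd5 in level and change. Some genes that this rule names are not reported here. Genes, lists and this rule were chosen with earlier results of these data known. Python 3.11.15, numpy 2.4.6, pandas 2.3.3 and matplotlib 3.10.9 were used.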

Additional observations from a re-analysis of the deposited data

How the results depend on the processing

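Under other scalings of the libraries (equal totals, upper quartile, median ratio without chromosome 1), a pseudocount of 5 and the mean of log2 values, the 4 called genes kept their calls. With each sample left out in turn, Setd5 lay between -0.42 and -0.34, with 3 to 4 of the 9 genes called lower and 1 called higher, and Hdac3 joined the calls only without Setd5+/- replicate 1. At a difference of at least 1.5-fold, 0 genes were called lower, since Paf1 was 1.49-fold lower. The sign of Kmt2e, which was not called, varied with the setting, from -0.05 to 0.02. With the replicate block (log2 ratios between samples of the same number) Setd5 was at -0.37, and 3 genes were called lower and 1 higher; the numbers name parts of 1 library and pair no cultures. The samples limit every value to 1 library per genotype, so that depth gives narrow intervals but no error between cultures or clones.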
